A study of Mus musculus with 18 samples.

Results

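The genes followed here are 10 genes of the AP-1 and immediate early group, namely Fos, Fosb, Jun, Junb, Jund, Egr1, Atf3, Ier2, Zfp36 and Dusp1. They were taken by gene symbol from the 35655 genes of the count table. All 10 were among the 10312 genes that passed the filter on low counts. The RNA came from carotid arteries of WT mice of strain C57/BL6, cut out by laser from frozen sections so as to hold the vessel wall within the outer elastic lamina and, after injury, the neointima. Vessels were taken on day 0, labelled as pre-injury (4 libraries), and on days 7 (4), 14 (3), 21 (4) and 28 (3) after a wire had been passed through the left carotid of male mice, young adults by the age in the study's methods. How many mice make up a library is not stated, although the study speaks of pooled neointima. The methods name the uninjured right side as the control, but whether the day 0 libraries, labelled pre-injury, come from that side of injured mice is not stated, and 3 of them carry the same mouse number as a day 21 library. The p-values below therefore measure only the spread between these libraries, which may be partly technical.

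Immediate early genes are transcribed within minutes of a stimulus, without new protein synthesis, and most of their messages are short-lived. Several encode subunits of AP-1, a dimer of a Jun protein with a Fos, Jun or ATF protein that binds DNA through a basic leucine zipper. JunB and JunD dimers can oppose or replace those of c-Jun, and the genes are known in arteries for their brief induction after mechanical injury and for their response to tissue handling. Others of the group limit the signal. Zfp36 (tristetraprolin) promotes the decay of AU-rich messages, including its own, and Dusp1 removes phosphate from MAP kinases.

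The sequences ahead of Junb and Jund are shown because these neighbours in function moved in opposite directions by day 7. Each is the 250 bases before the start of the canonical transcript, read from GRCm39 (mm39) with the GENCODE annotation and written 5′ to 3′ on the gene's own strand. Capitals mark matches to any of the motifs searched, which were TGACGTCA (a cyclic AMP response element), TGANTCA (the AP-1 site), GCGNGGGCG (the Egr1 site) and the CArG box of serum response factor on both strands, and TATAAA on the gene's strand only. No matches overlapped one another.
Junb, chr8:85705348-85705597, minus strand: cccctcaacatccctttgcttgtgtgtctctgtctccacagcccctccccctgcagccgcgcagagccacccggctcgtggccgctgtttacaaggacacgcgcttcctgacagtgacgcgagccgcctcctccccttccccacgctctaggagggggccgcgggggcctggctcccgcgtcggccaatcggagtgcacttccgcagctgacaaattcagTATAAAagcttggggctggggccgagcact
Jund, chr8:71151349-71151598, plus strand: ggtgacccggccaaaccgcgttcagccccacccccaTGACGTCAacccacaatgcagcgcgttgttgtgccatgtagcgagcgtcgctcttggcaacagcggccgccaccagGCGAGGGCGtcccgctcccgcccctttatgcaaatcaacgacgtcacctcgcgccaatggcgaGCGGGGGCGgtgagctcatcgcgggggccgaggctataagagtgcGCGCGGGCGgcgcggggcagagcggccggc

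In this window Junb held 1 TATAAA, which began 30 bases before the start, while Jund held none of these and carried 1 TGACGTCA and 3 GCGNGGGCG instead. TATAAA was found in 2 of the 10 members (Fos and Junb) and in 8.03% of 21770 promoters of the same length. TGACGTCA was found in Jund, Ier2 and Dusp1, against 1.69% of all promoters, and GCGNGGGCG in Fosb and Jund, against 4.48%. Neither TGANTCA (6.17% of all promoters) nor the CArG box (1.4%) was written in these 250 bases of any member. A match is a run of letters, not a measured site, and a missing one says nothing about the factor.

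The members also differ in the core of the AU-rich element, TATTTAT in DNA letters, to which the Zfp36 protein is known to bind. It occurred in the 3′ untranslated region of 7 of the 10 members and of 29.9% of 20480 annotated regions of at least 50 bases. Zfp36 and Dusp1 held 3 copies each, Fos 2, and Fosb, Jun, Jund and Atf3 1 each, while Junb, Egr1 and Ier2 held none. The copies of Zfp36, Fos and Jund are shown with 9 bases on either side, and capitals mark the core.
Zfp36, first copy: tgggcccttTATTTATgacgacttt
Zfp36, middle copy: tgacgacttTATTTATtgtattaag
Zfp36, last copy: attttatagTATTTATatatattgg
Fos, first copy: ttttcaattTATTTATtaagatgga
Fos, last copy: attctcagaTATTTATatttttatt
Jund: attccgcccTATTTATgtttctact

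Counts were compared between days with edgeR's quasi-likelihood test over all genes tested, and genes whose p, adjusted after Benjamini and Hochberg, was under 0.05 are called changed. Levels are given as CPM, counts scaled to a common normalised library total. A library held 440675 to 878310 counts, so that a library without a count of a gene still allows up to 3 counts of it. The cells in the tissue changed over the same days. The summed level of 10 smooth muscle markers on days 0, 7 and 28 was 36621 ± 2123, 3578 ± 2572 and 23901 ± 4483 CPM (SD, n = 4, 4 and 3), so the day 0 tissue carries the markers of its label. That of 14 macrophage markers was 299 ± 202, 6495 ± 1070 and 1072 ± 214 CPM on these days. Of the tested markers, 9 of 9 smooth muscle genes were lower and 14 of 14 macrophage genes higher on day 7 than on day 0. In bulk tissue a smaller number of cells of one type and less RNA per cell cannot be told apart, and the part of the changed cell makeup in the results below was not tested.

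Day 7 was the only day on which edgeR called members against day 0. Junb and Zfp36 rose and Jund fell, so that 3 of 10 members were called, against 19.8% of all genes tested, 11.3% higher and 8.53% lower. The share among the members is close to that among all genes, and the count says nothing particular about the group. The median log2 fold change of the 10 members was -0.01, beside 0.07 over all genes tested. On day 14 no member was called by edgeR against 6.22% of all genes (4.8% higher and 1.42% lower), with 2 members at an unadjusted p under 0.05 and 1 called by DESeq2. On day 21 no member was called against 8.84% (5.92% higher and 2.93% lower), with 2 at an unadjusted p under 0.05 and 1 called by DESeq2, and on day 28 none against 1.34% (0.97% higher and 0.369% lower), again with 2 and 1. Tested over the 4 later days together, Junb (adjusted p = 0.000208 from edgeR) and Jund (adjusted p = 0.0423) differed from day 0, against 18% of all genes, and Zfp36 (adjusted p = 0.0692) and Fos (adjusted p = 0.0795) missed the threshold. The share of all genes at an unadjusted p under 0.05, or called by DESeq2, is not given here. Those counts of members therefore say nothing particular about the group. All comparisons with day 0 share the same 4 libraries.

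**Figure D1:**
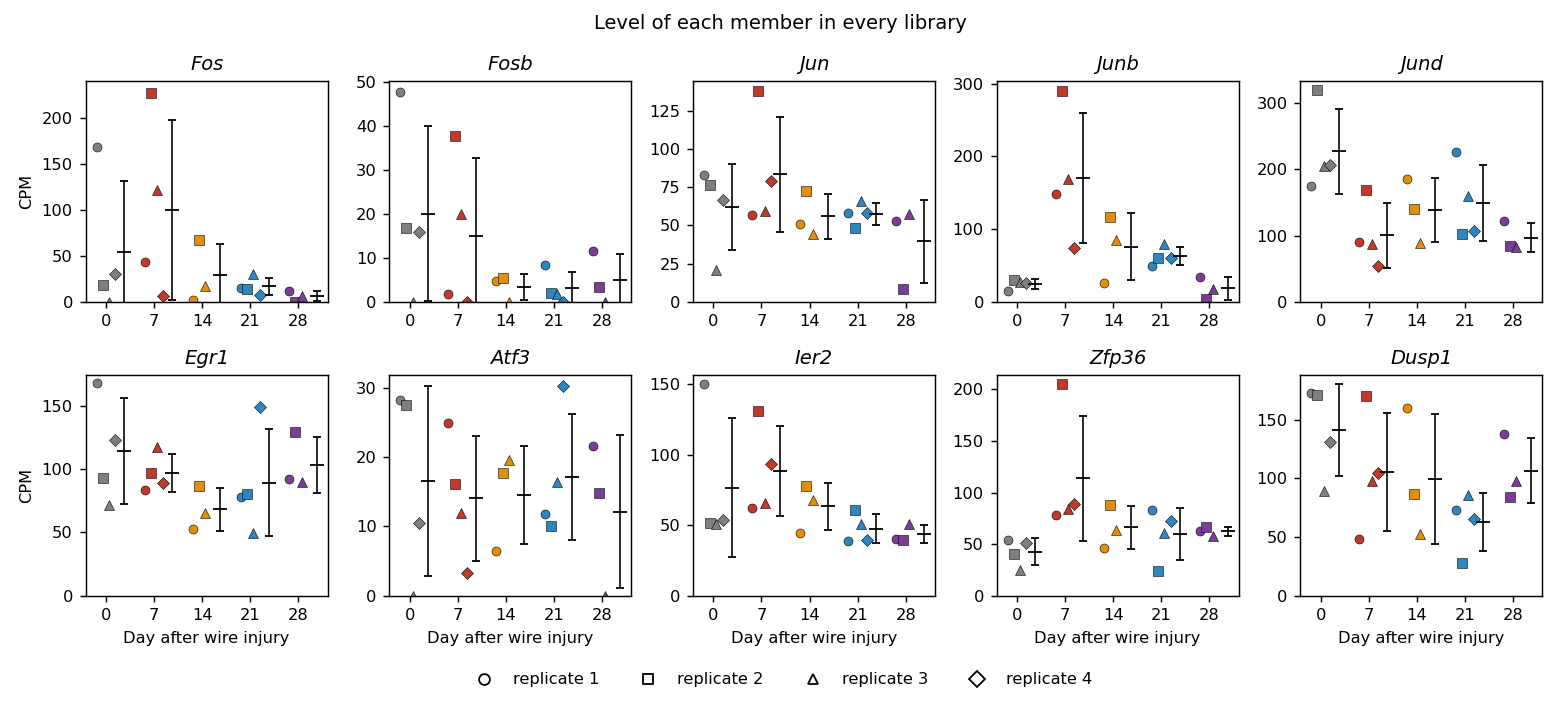
Level of each of the 10 members in CPM (linear axis from 0, a scale of its own for each gene) against the day after wire injury. Symbols are libraries by replicate number, and the bar beside them is the mean with 1 SD. All 4 Junb libraries of day 7, at 74.3 to 289 CPM, lie above all day 0 libraries, at 14.9 to 29.9, and those of Jund lie below theirs, while the Fos libraries spread from 0 to 168 CPM on day 0 alone.

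Junb, on chromosome 8 from 85701113 to 85705359 on the minus strand, is a gene of 1 exon whose product forms AP-1 dimers that often act more weakly than those of c-Jun. Its level was 14.9, 29.9, 26.8 and 24.9 CPM in the 4 day 0 libraries and 148, 289, 169 and 74.3 CPM in those of day 7. The groups did not overlap, and the lowest library of day 7 was well above the highest of day 0. The mean rose from 24.1 ± 6.49 to 170.2 ± 89.2 CPM (SD, n = 4 each), a 6.96-fold difference (log2 fold change 2.80, standard error 0.49, edgeR's adjusted p = 0.000166). This call held under all 27 alternatives, with adjusted p between 9.6e-11 and 0.00173.
On day 14 the libraries held 25.6, 116 and 84.8 CPM of Junb, and on day 21 they held 49.7, 60.5, 78.9 and 60.5 CPM. The first of the day 14 libraries lay among those of day 0, whereas all those of day 21 lay above them. The log2 fold changes against day 0 were 1.63 (standard error 0.51, adjusted p = 0.0560 from edgeR) and 1.35 (standard error 0.49, adjusted p = 0.0834), so neither was called. The day 14 difference was past the threshold without replicate 1 of that day (log2 fold change 2.05, adjusted p = 0.00988) and with DESeq2 (adjusted p = 0.0282). It was not called in 21 of 27 alternatives, and its log2 fold change ran from 1.19 to 2.05 over the fits without 1 library.
By day 28 Junb was at 34.5, 3.31 and 17.6 CPM, which overlaps day 0 (log2 fold change -0.37, adjusted p = 0.810 from edgeR, 95% interval -1.53 to 0.80).

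Jund, on chromosome 8 from 71151599 to 71153265, also has 1 exon, and its product is the Jun protein that resting cells make most steadily. It was at 176, 320, 206 and 207 CPM on day 0 and at 90.8, 169, 87.7 and 53.3 CPM on day 7. All libraries of day 7 lay below all those of day 0, although the highest of day 7 was close to the lowest of day 0. The mean fell from 227 ± 63.8 CPM to 100.2 ± 48.9 (SD, n = 4 each), a 2.27-fold lower level (log2 fold change -1.18, standard error 0.33, edgeR's adjusted p = 0.0126). The call rested on day 0 replicate 2, without which the log2 fold change was -0.97 and the adjusted p 0.0585.
On day 14 Jund was at 186, 139 and 88.7 CPM and on day 21 at 227, 103, 160 and 107 CPM, in both cases overlapping day 0. The log2 fold changes were -0.73 (adjusted p = 0.306 from edgeR) and -0.60 (adjusted p = 0.299). On day 28 its libraries, at 122, 84.3 and 83.1 CPM, were again all below those of day 0, with a log2 fold change of -1.23 (standard error 0.37) that was not called by edgeR (adjusted p = 0.1003) but was by DESeq2 (adjusted p = 0.0414).

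Jun, on chromosome 4 from 94937271 to 94940459 on the minus strand, encodes c-Jun, the subunit that gives AP-1 most of its activity. Its level was 83.4, 76.5, 20.9 and 66.9 CPM on day 0 and 57.0, 138, 59.8 and 79.1 CPM on day 7, and these overlapped. The log2 fold change of day 7 was 0.43, with a 95% interval from -0.47 to 1.33 (adjusted p = 0.576 from edgeR), and Jun was not called on any day. Exons of Jun, Junb and Jund overlap a long noncoding RNA gene on the other strand (Junos, Gm65321 and Gm11175). Whether strand was used in counting is not given in the sources used here, so some of their counts could belong to these.

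Since the kit reads only the end of each transcript, counts are not scaled by length, and the 3 Jun family genes can be set against one another within a library apart from differences in how well each end is captured. Junb took 5.43% to 10.6% of the summed Jun, Junb and Jund counts in the day 0 libraries and 35.9% to 53.5% in those of day 7. Jund took 64.1% to 81.2% on day 0 and 25.8% to 30.7% on day 7, so that the gene with most of the counts changed from Jund to Junb in each day 7 library but the last, in which Jun held most. The share of Jun moved within the spread, from 19.7% ± 9.25 on day 0 (SD, n = 4) to 24.9% ± 9.13 on day 7 (SD, n = 4). On days 14 and 21 Junb took 28.1% ± 15.9 (SD, n = 3) and 24.0% ± 6.23 (SD, n = 4), and on day 28 10.3% ± 6.53 (SD, n = 3), with Jund back at 66.2% ± 19.0 (SD, n = 3). This contrast was noticed in the data and is given as a description, without a test.

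**Figure D2:**
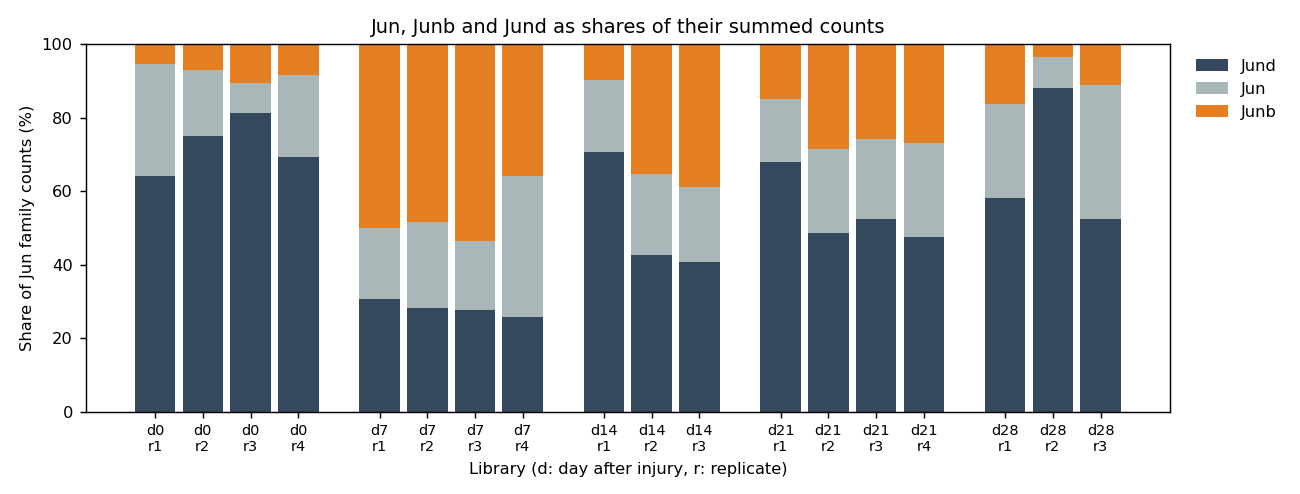
Share of Jund, Jun and Junb in their summed counts (percent, 0 to 100) in each of the 18 libraries, grouped by day (d) and replicate (r). Junb takes 35.9% to 53.5% of the bar in the day 7 libraries and at most 10.6% in the day 0 libraries.

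Fos, on chromosome 12 from 85520658 to 85524047, is the classical immediate early gene and the partner of Jun in stimulated cells. It was at 168, 17.9, 0 and 30.2 CPM in the day 0 libraries and at 42.7, 228, 122 and 6.46 CPM in those of day 7. Libraries of the same day thus differed more than the days did, from no count to 113 counts on day 0 and from 4 to 127 on day 7. The log2 fold change of day 7 was 0.89 with a 95% interval from -0.99 to 2.76 (adjusted p = 0.578 from edgeR), which includes a rise of several fold as well as a fall. Single libraries carried this value, which was 2.60 without day 0 replicate 1 (adjusted p = 0.0735 from edgeR) and close to 0 without day 7 replicate 2.
No library after day 7 held more than 67.1 CPM of Fos. It was at 1.6, 67.1 and 17.0 CPM on day 14, at 15.4, 14.1, 29.6 and 6.98 CPM on day 21 and at 11.5, 0 and 6.39 CPM on day 28. Against day 0 day 28 differed by -3.10 on the log2 scale (standard error 1.24, edgeR's adjusted p = 0.228), and the groups overlapped at the day 0 library without a count.
Fosb, on chromosome 7 from 19036621 to 19043976 on the minus strand and a close relative of Fos, had at most 32 counts in any library. The mean of Fosb went from 20.03 ± 19.9 CPM to 14.9 ± 17.7 by day 7 (SD, n = 4 each) and 3.36 ± 2.92 (SD, n = 3), 2.99 ± 3.64 (SD, n = 4) and 4.93 ± 5.91 (SD, n = 3) on days 14, 21 and 28. No day was called, and on day 14, where no library had more than 3 counts, the level was at least 4.29-fold lower than on day 0 when set against 3 counts in each library (adjusted p = 0.399 from edgeR).

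Atf3, on chromosome 1 from 190902493 to 190950241 on the minus strand, encodes a stress-induced partner of Jun. Its level stayed low, at 0 to 28.3 CPM on day 0 and 3.23 to 24.9 CPM on day 7, and the means of all days lay between 12.1 and 17.2 CPM. No comparison called it, and the 95% interval of the day 7 log2 fold change, from -2.08 to 1.59, was too wide to tell a change of several fold from none.
Egr1, a zinc finger factor on chromosome 18 from 34992876 to 34998049 whose gene serum response factor drives, had means of 114 ± 41.9 CPM before injury and 96.8 ± 14.9 by day 7 (SD, n = 4 each). All its libraries fell between 49.3 and 168 CPM. Its log2 fold change was -0.24 on day 7 (95% interval -0.90 to 0.42, adjusted p = 0.687 from edgeR), -0.74 on day 14 (adjusted p = 0.273), -0.37 on day 21 and -0.14 on day 28.
Ier2, a nuclear protein gene of 1 exon on chromosome 8 from 85387960 to 85389483 on the minus strand, was at 150.4, 51.4, 50.7 and 53.8 CPM on day 0. A single library therefore carried the day 0 mean of 76.6 ± 49.2 CPM (SD, n = 4). On day 7 it was at 62.3, 131, 65.8 and 93.6 CPM, and the log2 fold change of 0.21 (adjusted p = 0.765 from edgeR) was well within the spread.

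Zfp36, on chromosome 7 from 28076209 to 28079710 on the minus strand, was at 53.6, 40.6, 25.3 and 51.2 CPM on day 0 and at 78.3, 205, 83.7 and 88.8 CPM on day 7. The groups did not overlap, and the second library of day 7 stood far above the other 3. The mean rose from 42.7 ± 12.9 to 114 ± 60.8 CPM (SD, n = 4 each), a 2.66-fold difference (log2 fold change 1.41, standard error 0.38, edgeR's adjusted p = 0.00882). Without that library the log2 fold change was 0.92 and the adjusted p 0.111, so the call rested on it.
Later the level was 46.4, 88.2 and 63.9 CPM on day 14, 82.8, 24.2, 60.8 and 72.1 CPM on day 21 and 63.2, 66.2 and 57.5 CPM on day 28. The day 28 libraries were close together and all above day 0, but the log2 fold change of 0.54 was not called (adjusted p = 0.568 from edgeR).
Dusp1, annotated on chromosome 17 from 26724564 to 26781102 on the minus strand, was at 173, 171, 89.4 and 131 CPM on day 0 and at 48.1, 171, 97.7 and 105 CPM on day 7. These overlapped, with a log2 fold change of -0.42 (adjusted p = 0.508 from edgeR). On day 21 it was at 73.3, 28.3, 85.5 and 65.1 CPM, all below day 0. In the deposited normalised values these groups overlapped, at 58.4 in day 21 replicate 3 and 50.1 in day 0 replicate 3. There Dusp1 alone of the members departed from its library's scaling, by a factor of 0.863 to 1.12. From the counts, the log2 fold change of Dusp1 was -1.15 (standard error 0.39), which edgeR did not call (adjusted p = 0.0626) and DESeq2 did (adjusted p = 0.0400). Levels of 107 ± 27.9 CPM (SD, n = 3) on day 28 overlapped day 0 again.

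**Figure D3:**
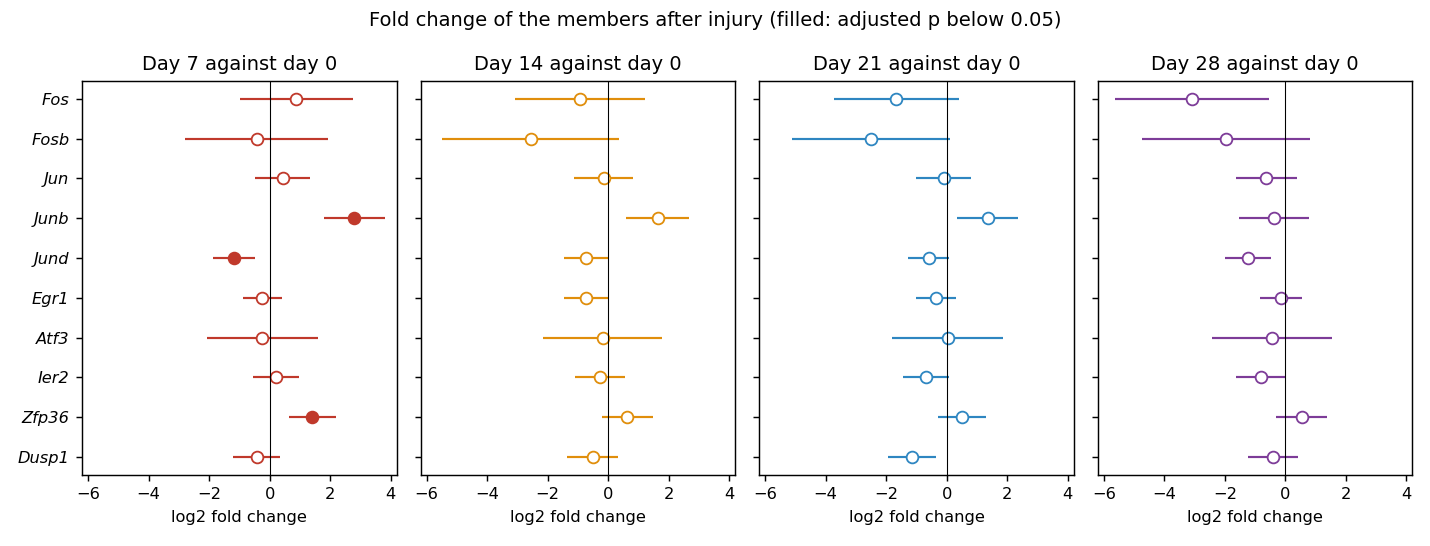
Log2 fold change of the 10 members on days 7, 14, 21 and 28, each against day 0, with a 95% interval derived from edgeR's fold change and F statistic. Filled points have an adjusted p below 0.05 over all genes tested, which holds for Junb (2.80), Zfp36 (1.41) and Jund (-1.18) on day 7 and for no member on the other days.

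Libraries that do not overlap are common in groups of this size. On day 7 they were found for 2 members in the higher direction (Junb and Zfp36) and 1 in the lower (Jund), beside 13.6% and 9.71% of all genes tested. On day 21 Junb lay above and Dusp1 below all day 0 libraries, beside 9.31% and 6.81% of all genes, and on day 28 Zfp36 lay above and Jund below, beside 4.88% and 5.07%. For Dusp1 the separation was absent from the deposited normalised values.

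The later days were also compared directly with day 7. On day 14 edgeR called no member, against 1.66% of all genes (1.33% higher and 0.33% lower), with 1 at an unadjusted p under 0.05 (Junb) and none called by DESeq2. On day 21 it called none, against 7.26% (4.03% higher and 3.23% lower), with 4 at an unadjusted p under 0.05, all lower, and 1 called by DESeq2. That member was Junb, whose log2 fold change of -1.45 was close to the threshold (standard error 0.46, adjusted p = 0.0546 from edgeR, and 0.0286 from DESeq2). On day 28 Junb and Fos were called lower, which is 2 of 10 members against 14.4% of all genes (6.4% higher and 8.05% lower), and 5 members had an unadjusted p under 0.05, all lower. The share of all genes at an unadjusted p under 0.05, or called by DESeq2, is not given here, so those counts are a description only. The median log2 fold change of the members was -0.94 on day 28, beside -0.07 over all genes tested.
Junb was 8.98-fold lower on day 28 than on day 7 (log2 fold change -3.17, standard error 0.56, edgeR's adjusted p = 0.000475) between groups that did not overlap, and this held under all 27 alternatives. Fos was 15.8-fold lower (log2 fold change -3.98, standard error 1.25, edgeR's adjusted p = 0.0328). Its groups overlapped, since the lowest day 7 library (6.46 CPM) lay below the highest of day 28 (11.5 CPM), and the call was lost without day 7 replicate 2 (adjusted p = 0.124), day 7 replicate 3 (0.0608), day 28 replicate 2 (0.120) or day 28 replicate 3 (0.0886). Over all alternatives its adjusted p ran from 1e-08 to 0.203. Ier2 and Zfp36, like Junb, had all day 28 libraries below all those of day 7, a separation seen in 14.4% of all genes, but with log2 fold changes of -1.01 (adjusted p = 0.103 from edgeR) and -0.87 (adjusted p = 0.165) they were not called. Ier2 was also below day 7 in all libraries of day 21, beside 9.18% of all genes (log2 fold change -0.90, edgeR's adjusted p = 0.167). These comparisons share the day 7 libraries.

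Much of the spread lay between libraries of the same day. Of the day 0 libraries, replicate 1 held the highest level of 8 of the 10 members and replicate 3 the lowest of 8. On day 7 replicate 2 was highest for 8, and on day 14 replicate 2 was highest for 7. The share of all genes for which these libraries were highest or lowest is not given here, so these counts are a description only. The summed level of the 10 members ran from 490.4 to 1063 CPM on day 0 and from 592 to 1482.5 CPM on day 7, and the means of the days, 778 ± 240 and 887 ± 411 CPM (SD, n = 4 each), differed by less than this. Means of 613 ± 130 CPM (SD, n = 3), 566 ± 92.3 (SD, n = 4) and 494 ± 82.3 (SD, n = 3) followed on days 14, 21 and 28.
After each day's mean had been taken away, the log2 levels of the members varied together across the 18 libraries. The median correlation over the 45 pairs was 0.32, with 42 of them above 0, beside a median of 0.01 over all pairs of genes tested. Fos and Fosb had the highest value (r = 0.72), followed by Fos and Jun (0.65). Fosb and Jund (0.61) and Fos and Ier2 (0.60) came next, and the lowest was Jund with Egr1 (-0.30). The points share libraries and their depth, and Fosb and Atf3 rest on few counts, so these values are a description.

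**Figure D4:**
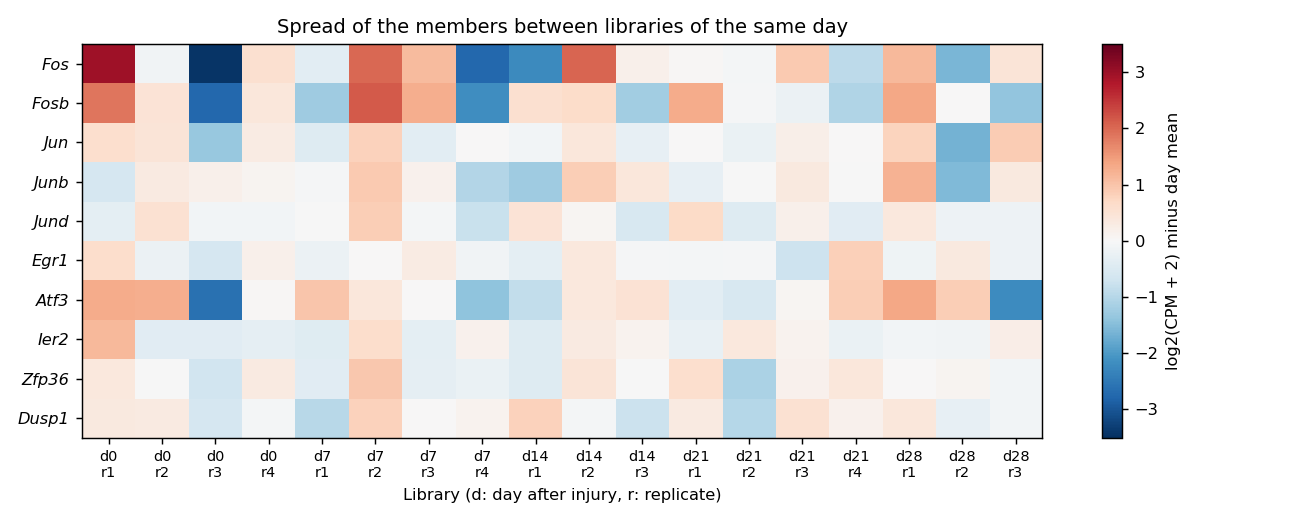
Deviation of each member from its mean of the same day, as log2(CPM + 2), in the 18 libraries named by day (d) and replicate (r), red for above and blue for below. Fos deviates most, with 168 CPM in day 0 replicate 1 and no count in day 0 replicate 3, and columns tend to hold one colour.

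The rest of the pathway was followed through lists of genes, described by counts. Among 26 other AP-1 subunits and basic leucine zipper partners, 5 were higher and 2 lower on day 7, which is near the 11.3% and 8.53% of all genes, and the median log2 fold change was -0.03. Fosl1 and Fosl2, the remaining Fos family genes, were not called on that day (log2 fold change 1.41 with adjusted p = 0.428 from edgeR, and 0.36 with adjusted p = 0.545), nor were Jdp2 (-0.05) and Maff (-0.68). Those that rose included Cebpa (4.05, standard error 0.69, adjusted p = 0.000133 from edgeR), Maf (2.57), Cebpb (1.53) and Batf, a Jun partner of immune cells without a count on day 0, which was at least 3.01-fold higher. Cebpa, Cebpb and Maf are textbook factors of myeloid cells, and the macrophage markers given above rose on the same day. Mafk (-1.89) and Atf5 (-1.10) fell, though these calls and that of Cebpb were lost without some single libraries. Cebpa (3.31) was still higher on day 14, Maf (2.59), Creb3l1 (1.60) and Cebpa (2.31) on day 21, and Maf (2.47, adjusted p = 0.0455 from edgeR) on day 28. The call of Maf on day 28 was lost in 15 of 27 alternatives and that of Cebpa on day 21 in 11 of 28. Against day 7, Fosl1 was at least 4.41-fold lower on day 28 (edgeR's adjusted p = 0.0402), which 9 of the 18 fits without 1 library did not call.

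Of 40 other immediate early genes tested, 11 were higher and 3 lower on day 7, beside 11.3% and 8.53% of all genes, with a median log2 fold change of 0.27. The rises were led by the kinase Plk3, at least 4.87-fold higher, the matricellular gene Ccn1 (1.78, standard error 0.37, adjusted p = 0.0011 from edgeR) and the cytokine signalling inhibitor Socs3, at least 12.2-fold higher, and Myc rose by 3.40 (adjusted p = 0.0157 from edgeR), a call lost without day 0 replicate 4 or day 7 replicate 3 (adjusted p up to 0.0532). Id2 (-1.71), Per1 (-1.49) and Id1 (-0.88) fell, of which Id2 held under all alternatives. The well known relatives of the members in this list were not called on day 7, namely Nr4a1 (-0.94), Egr3 (0.23), Klf4 (-0.12), Ier3 (0.94, adjusted p = 0.0983 from edgeR) and Klf2 (1.11, adjusted p = 0.0501), and Egr2, with 61 counts in all, was too low to be tested. Plk3 and Socs3 were called higher on days 14 and 21 too, together with Klf2 (1.73, adjusted p = 0.00662 from edgeR) and Phlda1 (1.60) on day 21. The calls of Socs3 on both days and of Phlda1 were lost without some single libraries, those of Plk3 and Klf2 under no alternative. Against day 7, 7 genes of the list were lower on day 28, led by Irf1 (-2.80), Plk2 (at least 6.93-fold lower) and Ccn1 (-1.55), and Per1 (2.19), Id1 (1.13) and Id2 (1.41) were higher, beside 8.05% and 6.4% of all genes. Of these named calls, those of Irf1, Plk2 and Per1 held under all alternatives and those of Ccn1, Id1 and Id2 did not.

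Around Dusp1, 13 other MAP kinase phosphatases and feedback inhibitors were tested, with 3 higher and 2 lower than day 0 on day 7, beside 11.3% and 8.53% of all genes. Dusp6, which acts on ERK, rose from 24.8 ± 19.4 to 128 ± 55.3 CPM (SD, n = 4 each; log2 fold change 2.37, standard error 0.45, edgeR's adjusted p = 0.000377), followed by Dusp5 (2.74) and Dusp2 (3.53), whose calls were lost without some single libraries. Dusp8 (-3.71, adjusted p = 0.000647 from edgeR) and Dusp3 (-1.46) fell under all alternatives. On day 21 Dusp6 was higher (1.47, lost in 8 of 28 alternatives) and Dusp3 lower (-1.48) than on day 0. Of 25 MAP kinases and partners of serum response factor, 3 were higher on day 7, close to the share of all genes, namely Elk3 (1.79, adjusted p = 0.000222 from edgeR), Rps6ka1 (at least 11.5-fold) and Mrtfa (0.92, adjusted p = 0.0461, lost in 21 of 27 alternatives). Elk3 and Rps6ka1 were also called on days 14 and 21, and both were lower on day 28 than on day 7. These later calls of Elk3 were lost on day 14 without day 14 replicate 2 (adjusted p = 0.0703 from edgeR) and on day 21 in 4 of 28 alternatives. That of day 28 against day 7 was lost without day 28 replicate 3 (adjusted p = 0.0598 from edgeR). In the fit to the deposited normalised values none of the 4 calls of Rps6ka1 held (adjusted p from 0.0627 to 0.908 with limma), and its log2 fold change of day 28 against day 7 went from -2.68 to -0.30.

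Of 17 textbook AP-1 target genes, 10 were higher on day 7, beside 11.3% of all genes, with a median log2 fold change of 3.32, or 2.75 with 4 genes at their lower bound. Timp1, an inhibitor of metalloproteinases, rose from 55.5 ± 18.1 to 1411 ± 934 CPM (SD, n = 4 each; log2 fold change 4.66, standard error 0.47, edgeR's adjusted p = 1.7e-07), and Hmox1, which degrades haem, from 6.51 ± 7.68 to 919 ± 521 CPM. Spp1 (osteopontin) was at least 374-fold higher. On day 14, 9 of them were higher, beside 4.8% of all genes. On day 21, 9 were higher and 1 lower (Vim, -0.72, adjusted p = 0.0308 from edgeR, named after its value was seen), beside 5.92% and 2.93%. On day 28, 2 were higher, Spp1 and Ccnd1 (2.19), beside 0.97%, and 10 were lower than on day 7, beside 8.05%. Of 8 tested messages that Zfp36 is known to bind, 6 were higher on day 7, led by the chemokine gene Ccl2 (at least 76.9-fold), Il1b (at least 37.97-fold) and Cxcl1 (log2 fold change 4.84), while Zfp36 itself rose. The remaining calls of this list were lost in 5 of 25, 6 of 27 and 9 of 25 alternatives. Ccl2, Il1b and Vegfa stand in both lists. Ier3 and Ptgs2 are shared by the Zfp36 list and that of the other immediate early genes. Several genes of these lists are made by macrophages, and the part of the macrophage markers in their rise was not tested.
A list of 10 inducible heat shock genes, which like immediate early genes answer acute stress, had 4 genes lower on day 7, beside 8.53% of all genes, and a median log2 fold change of -0.52. Hspa1a fell from 393 ± 388 to 19.2 ± 12.6 CPM (SD, n = 4 each; log2 fold change -4.34, standard error 0.84, edgeR's adjusted p = 0.000533), and Hspb1 (-2.48) and Hspa1b (-3.10) fell too. The call of Hspa1b was lost without day 0 replicate 2 (adjusted p = 0.0634 from edgeR). The remaining call of this list, at edgeR's adjusted p = 0.0499, was lost in 15 of 27 alternatives, DESeq2 among them. On day 28 Hspb1 (2.98) and Hspa1a (2.79) were higher than on day 7, calls that were lost without day 28 replicate 1 and, for Hspa1a, without any of 3 day 7 libraries. Over all lists, 46 genes other than the members were called on day 7, of which 19 lost their call in a fit without some library, and the same held for 10 of 16 on day 14, 11 of 22 on day 21 and 2 of 3 on day 28. Of the calls against day 7, 2 of 2 on day 14, 3 of 7 on day 21 and 22 of 35 on day 28 were lost in this way.

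**Figure D5:**
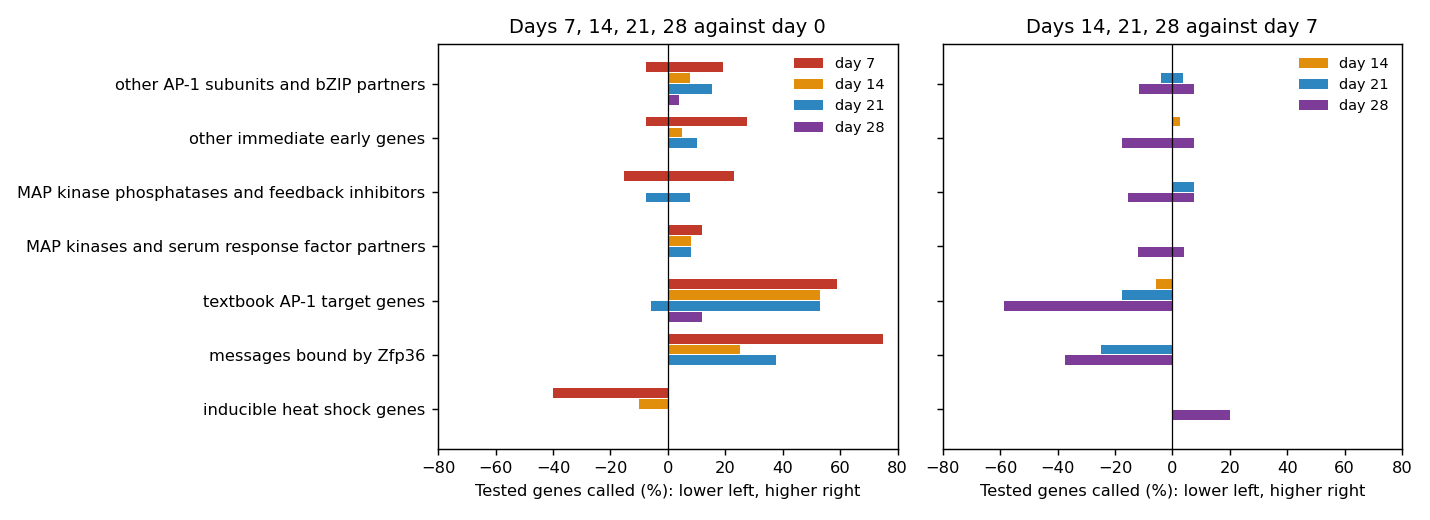
Share of the tested genes of each list that was called higher (right of 0) or lower (left) in percent, for each later day against day 0 and for days 14, 21 and 28 against day 7. On day 7 the textbook AP-1 targets (10 of 17 higher) and the messages bound by Zfp36 (6 of 8) have the longest bars, and the heat shock genes (4 of 10) the longest to the left.

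The genes whose log2 levels over the 18 libraries were most like the mean of the 10 members were Naaa, a lysosomal amidase (r = 0.84), Bcl10, a signalling adaptor (0.78), Pim1, a kinase (0.77), Dck, which phosphorylates nucleosides (0.77), Pdk3, a mitochondrial kinase (0.77), Syngr2 (0.76), Snrpa, a splicing protein (0.76), and Wdcp (0.76). These values are the highest of the whole table over few libraries and are a description only.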

How the data were processed

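MACE libraries of 18 mouse carotid samples were analysed. Reads were freed of PCR duplicates through molecular identifiers and quantified with Salmon 1.9.0 against the mm39 transcriptome by the authors, who deposited estimated counts per gene as whole numbers (expected counts). The deposited normalised signal, which the authors made with DESeq2 1.36.0, was used only in 1 alternative and to check the scaling of the members and the levels of Dusp1. Single-cell data of the study were not used here. The annotation release and the use of strand are not given in the sources used here.

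edgeR 4.0.16 in R 4.3.3 was used on the counts (filterByExpr, TMM, quasi-likelihood test) in 1 fit over all 18 libraries with the day as the only term, and adjusted over 10312 genes at a threshold of 0.05. Folds against a group with at most 3 counts in every library are lower bounds against 3 counts in each. Totals were 440675 to 878310 counts, with a median of 659166, and the bounds against 3 counts cover counting error only, while the 95% intervals of edgeR's fold changes include the spread between libraries. Standard errors were derived as the size of the log2 fold change over the square root of the F statistic. The intervals were built from them with the t distribution. Log2 levels for the correlations of genes were log2(CPM + 2). The correlations over replicate numbers used edgeR's log2 CPM with a prior count of 2. The steps were tested on simulated data.

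The members, the lists, the rule for named genes and the tests were chosen with earlier results of these data known. Named are all members, the 3 genes with the smallest p per direction among the calls of each list, a fixed group of relatives such as Fosl1 and Egr3, and the 8 genes most like the members, and not all of them are printed. Alternatives covered DESeq2 1.42.0, RLE scaling, library totals, the filter, the libraries fitted, the replicate and mouse number as a block, each library left out, and limma 3.58.1 on the deposited normalised values with a pseudocount of 1, the last chosen after seeing the data.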

Additional observations from a re-analysis of the deposited data

Results flagged for a closer look

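Among the 30 groups of 4 libraries (the members on days 0, 7 and 21), 2 held a library whose distance from the nearest other exceeded Dixon's 95% critical share of the whole range, where chance alone gives about 1 in 20. Ier2 stood at 150.4 CPM in day 0 replicate 1, from 101 counts, while the other day 0 libraries held 50.7 to 53.8 CPM. Zfp36 stood at 205 CPM in day 7 replicate 2, from 114 counts, while the other day 7 libraries held 78.3 to 88.8 CPM. The same libraries were the highest of their day for 8 of the 10 members each, and the share over all genes is not given here. In day 0 replicate 1 the summed macrophage markers were the highest of that day (576 against 133 to 318 CPM). So were its smooth muscle markers (38495 against 33585 to 37440 CPM) and fibroblast markers (3585 against 2382 to 3459 CPM). Its endothelial, neutrophil and erythrocyte sums were the lowest of that day. In day 7 replicate 2 the macrophage sum was the highest (7946 against 5442 to 6558 CPM). Its smooth muscle sum was the lowest (1572 against 1958 to 7212 CPM). Its fibroblast sum (1808 against 622 to 1776 CPM) and skeletal muscle sum (91.6 against 0 to 17.9 CPM) were the highest too. The remaining marker sums of this library lay within the range of the other day 7 libraries. The cause was not tested. Without day 7 replicate 2, Zfp36 was no longer called on day 7 (log2 fold change 0.92, adjusted p = 0.111 from edgeR).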

How the results depend on the processing

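Of 1893 recomputed fold changes of the members, 1851 kept their side of the threshold, 34 gained a call, 8 lost theirs and none reversed a call. Most belong to comparisons not called in the main fit. Such a value counted as kept even where its sign changed, so the number says little about the calls. Replicate numbers were not taken as a pairing, because over the 33 pairs of equal number the deviations from the day means correlated with a median of -0.01, and 1 pair exceeded 0.1. With the replicate number as a block, 3 members were called on day 7 against day 0 and 2 on day 28 against day 7, as without it, and with the mouse number as a block 1 on day 28 against day 7 (Fos lost, adjusted p = 0.203) and 1 on day 21 against day 7. The number of genes called over the whole table moved between the alternatives, and its value under each of them is not given here. The counts of members and list genes called under an alternative are therefore a description only. Members called moved as follows, and the cause was not tested. With DESeq2, 1 was called on each of days 14, 21 and 28 against day 0 and on day 21 against day 7, and with no filter on low counts 1, 3 and 2 against day 0, 1, 2 and 2 against day 7 and 4 over all later days. With only the days compared, 2 were called on day 21 against day 0 and 2 against day 7. RLE scaling and library totals each gave 1 on day 21 against day 7, library totals gave 1 over all later days, and the deposited normalised values gave 1 on day 28 against day 7. Without 1 library each, the number ran from 0 to 1 on day 14 and on day 21 against day 0 and on day 21 against day 7, from 1 to 3 on day 28 against day 7 and over all later days, and from 2 to 3 on day 7 against day 0. List genes called on day 14 against day 0 (16) were 30 with no filter and 6 to 23 without 1 library (6 without day 14 replicate 2). On day 28 against day 0 (3) they were 7 with DESeq2, 8 with no filter, 0 with the mouse number block, 5 with the deposited normalised values and 1 to 16 without 1 library (16 without day 28 replicate 1). On day 14 against day 7 (2) they were 8 with no filter, 1 with only the days compared, the mouse number block or the deposited normalised values and 0 to 4 without 1 library. On day 21 against day 7 (7) they were 13 with DESeq2, 22 with no filter, 21 with only the days compared and 5 to 12 without 1 library. Without 1 library they ran from 30 (without day 7 replicate 2) to 50 on day 7, from 11 (without day 0 replicate 3) to 23 on day 21 and, on day 28 against day 7, from 21 to 35. Fosb and Atf3, with few counts, limit what can be seen of them.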
